A study of Mus musculus with 118 samples.

Results

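The genes described here are 10 germ cell genes with a known link to PCGF6, a subunit of a variant form of Polycomb repressive complex 1 (PRC1). They are Ddx4, Dazl, Mael, Tdrkh, Stk31, Sycp3, Hormad1, Stag3, Zcwpw1 and Slc25a31. They were taken by name from a total of 26180 mouse genes with a curated RefSeq transcript, by a rule that uses no measured value, although earlier results of these data were known when the genes were proposed. Each gene was looked up in 3 lists of binding sites (peaks) made by calibrated ChIP-seq in untreated mouse embryonic stem cells (ESCs), for RING1B, SUZ12 and PCGF2. The lists held 18643 peaks for RING1B, 7438 for SUZ12 and 3680 for PCGF2. PCGF6 was itself profiled in 3 untreated samples of the series, but its signal was not analysed here, so the link of these genes to PCGF6 was not checked.

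The series held 118 samples in 42 groups. For each of the 3 factors, 3 untreated samples (no agent, 0 hr) came from the PRC1CPM line. This line is clone 41 of strain E14 and carries Ring1a I50A/D53K, Ring1b(WT->I53A/D56K)fl/fl and Rosa26::ERT2-Cre. Its RING1A is thus already catalytically inactive before any treatment, while RING1B is wild type until tamoxifen activates the Cre. SUZ12 was also profiled in 3 untreated samples of the PRC1CKO line, clone B9 of strain E14, with the genotype Ring1a-/-, Ring1bfl/fl and Rosa26::ERT2-Cre. The RING1B list rests on this line too, through RING1B data that are not among the 118 samples. Each line is a single clone, and both lack normal RING1A function. Each list is a single set of peak positions drawn from several samples, and the lists give no height, depth or spread between replicates for any gene, and the identity of the cells could not be checked from them.

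PRC1 places ubiquitin on histone H2A, and its catalytic subunit is RING1A or RING1B. Canonical PRC1 contains PCGF2 or PCGF4 and reads the H3K27me3 mark placed by PRC2, of which SUZ12 is a core subunit. Variant PRC1 with PCGF6 instead holds the DNA-binding partners MGA and MAX, which recognise the E-box, and E2F6, which recognises E2F-type sites. In ESCs this complex is known for keeping genes of the germ line silent, among them genes for germ cell RNA handling, for the silencing of transposons by piRNAs and for meiotic chromosomes.

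All 10 genes had a RING1B peak at the promoter, 6 also had a SUZ12 peak there, and only Zcwpw1 had a PCGF2 peak. Over all genes the shares were 53.2%, 24.8% and 13.5%, and among genes with RING1B at the promoter 46.0% had SUZ12. Over protein-coding genes only, the shares with RING1B, SUZ12 and PCGF2 were 58.5%, 27.2% and 14.5%. A promoter was taken as 2500 bp either side of a transcription start site (TSS), and a peak counted if it shared at least 1 bp with that window. The canonical E-box CACGTG lay within 500 bp of the TSS in 7 of the 10 genes, always upstream and no farther than 223 bases away. The share with an E-box in that window was 16.9% over all genes and 21.9% among genes with RING1B at the promoter. The promoter sequences with these motifs are shown first.

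The 250 bases before the TSS are given for a germ cell RNA helicase, a germ cell RNA-binding protein and a pair of meiotic axis genes, because these 4 show an isolated E-box, no motif, and paired E-boxes. The sequences come from RefSeq on GRCm38.p6 (mm10) and run 5′ to 3′ in the direction of the gene. Capitals mark the E-box CACGTG and the E2F-type motif TCCCGC, which reads GCGGGA on the other strand.
Ddx4 (chr13:112652311-112652560, minus strand): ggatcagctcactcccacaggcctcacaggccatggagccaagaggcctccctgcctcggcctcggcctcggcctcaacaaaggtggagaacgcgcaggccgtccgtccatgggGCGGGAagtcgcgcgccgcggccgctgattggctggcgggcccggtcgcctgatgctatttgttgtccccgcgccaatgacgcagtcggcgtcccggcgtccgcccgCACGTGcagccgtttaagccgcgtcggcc
Dazl (chr17:50293621-50293870, minus strand): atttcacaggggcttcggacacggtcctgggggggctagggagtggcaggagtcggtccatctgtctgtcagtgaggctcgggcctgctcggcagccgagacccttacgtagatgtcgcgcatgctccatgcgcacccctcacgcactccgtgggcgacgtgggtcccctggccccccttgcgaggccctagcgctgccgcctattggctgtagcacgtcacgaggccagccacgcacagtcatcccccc
Sycp3 (chr10:88459337-88459586, plus strand): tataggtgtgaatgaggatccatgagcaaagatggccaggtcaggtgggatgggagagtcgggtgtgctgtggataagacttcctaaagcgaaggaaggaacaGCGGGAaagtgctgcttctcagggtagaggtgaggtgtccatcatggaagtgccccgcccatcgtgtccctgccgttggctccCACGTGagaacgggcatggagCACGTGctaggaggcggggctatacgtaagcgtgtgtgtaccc
Hormad1 (chr3:95559427-95559676, plus strand): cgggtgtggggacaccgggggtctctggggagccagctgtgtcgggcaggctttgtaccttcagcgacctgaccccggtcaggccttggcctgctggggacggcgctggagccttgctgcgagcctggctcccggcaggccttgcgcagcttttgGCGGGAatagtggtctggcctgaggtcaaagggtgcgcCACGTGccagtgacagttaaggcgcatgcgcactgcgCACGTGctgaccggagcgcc

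In Ddx4 the E-box began 29 bases upstream of the TSS and an E2F-type motif 136 bases upstream. In Sycp3 the E-boxes began 64 and 43 bases upstream and the E2F-type motif 147 bases upstream. Hormad1 had the same arrangement, with E-boxes at 57 and 20 bases and an E2F-type motif at 95 bases upstream. No capitals appear in Dazl, which was the only one of the 10 genes with neither motif within 500 bp of the TSS.

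The other 4 genes with an E-box had a single copy each. They are shown with 12 bases on either side, again in the direction of the gene and with the E-box in capitals, to let its flanks be compared.
Mael (chr1:166238950-166238979, minus strand, 223 bases upstream): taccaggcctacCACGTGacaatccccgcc
Slc25a31 (chr3:40708766-40708795, plus strand, 93 bases upstream): cgcaactggaaaCACGTGttatggtcacat
Stag3 (chr5:138280327-138280356, plus strand, 170 bases upstream): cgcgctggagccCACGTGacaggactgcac
Stk31 (chr6:49395472-49395501, plus strand, 55 bases upstream): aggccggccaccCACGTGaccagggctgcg

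Over all 26161 genes with a sequence value, 16.9% had the E-box within 500 bp of the first TSS, and among genes with RING1B at the promoter the share was 21.9%. For the 250 bases upstream of the TSS alone the share was 6.45% over all genes and 8.95% among genes with RING1B at the promoter, beside the same 7 of 10 members. This narrower window encloses every E-box of the members, so their count could not fall in it. The 500 bp window is therefore the fairer comparison. The E2F-type motif was present within 500 bp of the TSS in 8 of the 10 genes, all but Dazl and Stk31. That motif was common, with a share of 46.0% over all genes and 69.1% among genes with RING1B at the promoter, so the members' count lay close to that of other RING1B-bound genes. A match is a description of the letters and not of binding. Motifs were searched on both strands, and the E-box and the E2F-type motif overlapped in none of the genes. In all, 6 genes had both motifs, Stk31 had only the E-box, and Tdrkh and Zcwpw1 had only the E2F-type motif, downstream of the TSS. The share of all genes with both motifs is not given here, so the count with both has no comparison. Downstream copies of the E2F-type motif also lay in Ddx4, Mael and Slc25a31, and in Stag3 the motif began 2 bases before the TSS.

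**Figure D1:**
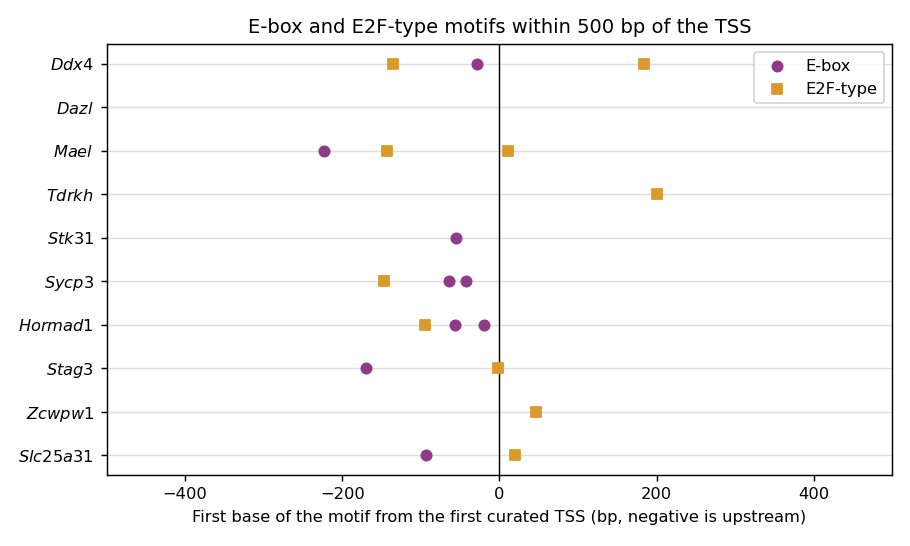
Position of each E-box (circles) and E2F-type motif (squares) within 500 bp of the first curated TSS of the 10 genes, with distance in bp in the direction of the gene on the x axis. All 9 E-boxes, in 7 genes, lie between 223 and 20 bases upstream, while E2F-type motifs lie on both sides of the TSS.

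The RING1B peaks covered the start of every gene. At all 10 genes the first TSS itself lay inside the peak, where 48.0% of all genes had a TSS inside a RING1B peak and 53.2% had such a peak within the promoter window. The peaks reached between 858 and 2601 bp upstream of the TSS and between 881 and 2691 bp downstream of it. Their midpoints lay upstream of the TSS in 7 genes, in an intron at Stag3 and in an exon at Zcwpw1 and Slc25a31, and within 250 bp of the TSS in 8. None of the genes had a peak of any list elsewhere in its body. The share of all genes without such a peak is not given here, so this count has no comparison.

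Ddx4 and Dazl encode RNA-binding proteins that mark germ cells. Ddx4, an RNA helicase of the germ line also called Vasa, lies on the minus strand of chromosome 13 with its TSS at 112652310. Its RING1B peak spanned chr13:112650604-112654253, which is 3650 bp. A SUZ12 peak of 3269 bp at chr13:112650946-112654214 filled 89.6% of that width. The nearest PCGF2 peak was 333395 bp from the TSS.

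Dazl, which regulates translation in germ cells, had RING1B alone. Its peak at chr17:50292614-50295011 was 2398 bp wide around a TSS at 50293620 on the minus strand. The next RING1B peak was 99832 bp from that TSS. The nearest SUZ12 peak was 99734 bp away and the nearest PCGF2 peak 101844 bp away, so no other listed peak was near Dazl.

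Mael, Tdrkh and Stk31 belong to the piRNA pathway or to the germ granules in which it works. Mael, needed for transposon silencing, had a RING1B peak of 2313 bp at chr1:166237721-166240033 with the TSS at 166238744 on the minus strand. Its SUZ12 peak at chr1:166238220-166238744 was only 525 bp wide. This SUZ12 peak began at the TSS and ran into the gene, with its midpoint in an intron. It covered 22.7% of the RING1B peak and left its upstream part and its downstream end uncovered. PCGF2 was nearest at 14040 bp.

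Tdrkh, a Tudor and KH domain protein that binds PIWI proteins, had a RING1B peak of 3922 bp at chr3:94411103-94415024 with the TSS at 94413244 on the plus strand. SUZ12 filled 69.5% of it, with a peak of 2725 bp at chr3:94411682-94414406. The TSS of 1700040D17Rik, on the opposite strand 289 bp away, lay in the same RING1B peak, so the peak cannot be given to either gene alone. Stk31, a Tudor domain protein with a kinase-like domain, had the narrowest RING1B peak of the 10, with 2067 bp at chr6:49394354-49396420 around TSSs at 49395539 and 49395604. Its nearest SUZ12 peak was 175209 bp away and its nearest PCGF2 peak 173997 bp away.

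Sycp3, Hormad1 and Stag3 build the axis of meiotic chromosomes. Sycp3, a component of the axial element, had a RING1B peak of 3046 bp at chr10:88457535-88460580 and its TSS at 88459587 on the plus strand. That peak was shifted farthest upstream of all 10, with its midpoint at -529.5 bp from the TSS. The nearest SUZ12 peak was 43507 bp away. Hormad1, which promotes synapsis and break formation, had a RING1B peak of 2526 bp at chr3:95558358-95560883 with its first TSS at 95559677. Its SUZ12 peak of 957 bp at chr3:95559443-95560399 covered 37.9% of the RING1B width.

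Stag3, a subunit of meiotic cohesin, had the widest RING1B peak of the genes that lacked SUZ12, with 4136 bp at chr5:138278735-138282870 and its TSS at 138280509. The TSS of Gpc2, a cell surface glypican gene on the opposite strand, lay 572 bp away inside that peak. SUZ12 was nearest at 85222 bp and PCGF2 at 472955 bp.

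Zcwpw1, a reader of the histone marks placed at recombination sites, was the only member present in all 3 lists. Its RING1B peak of 5293 bp at chr5:137784730-137790022 was the widest of the 10 and also held the TSS of Mepce, the capping enzyme of 7SK RNA, 630 bp from the first Zcwpw1 TSS at 137787331. The SUZ12 peak, 1494 bp at chr5:137787839-137789332, began 508 bp downstream of the first TSS and 37 bp downstream of the last one at 137787802. The PCGF2 peak, 477 bp at chr5:137787914-137788390, lay inside it. The midpoints of both were in an intron of Zcwpw1, on the side away from Mepce. In all, 3 members shared a RING1B peak with another gene's TSS, and among all genes with a TSS in a RING1B peak the share was 29.0%.

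Slc25a31, an ADP/ATP carrier of sperm mitochondria also called Ant4, had a RING1B peak of 2133 bp at chr3:40708013-40710145 with its TSS at 40708871 on the plus strand. Its SUZ12 peak of 1183 bp at chr3:40708428-40709610 covered 55.5% of that width. PCGF2 was nearest at 35263 bp.

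**Figure D2:**
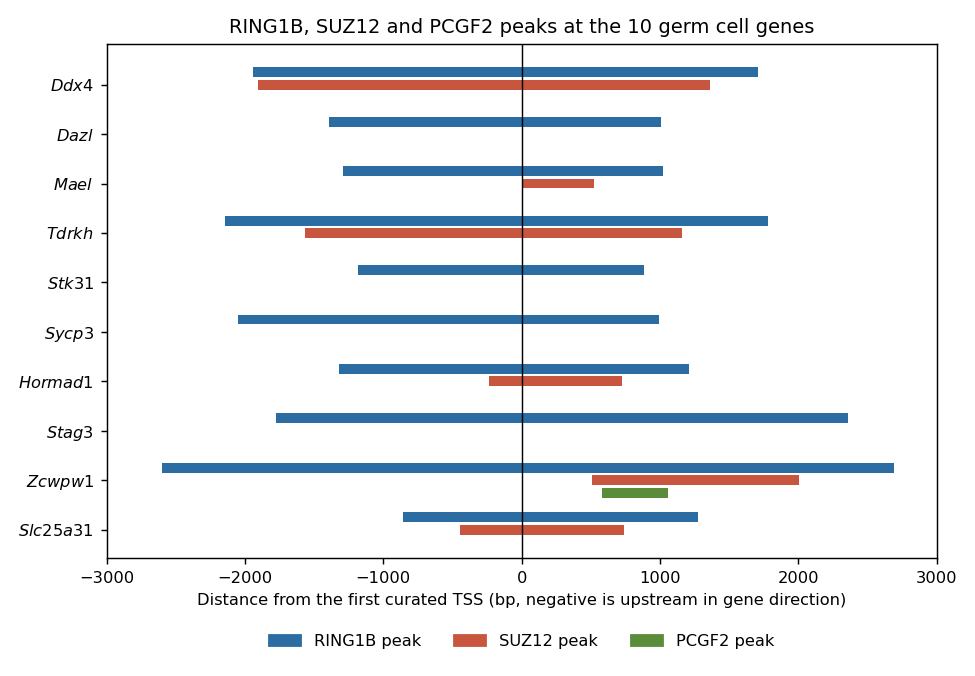
Peaks of RING1B (blue), SUZ12 (red) and PCGF2 (green) at the 10 genes, drawn to scale against distance in bp from the first curated TSS in the direction of the gene. RING1B spans the TSS in all 10 genes, SUZ12 is present in 6 and always inside the RING1B peak, and PCGF2 is present only at Zcwpw1, downstream of the TSS.

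SUZ12 was present at some members and absent at others within each role that held several of them. It was present at 6 of 10 promoters, where 24.8% of all genes and 46.0% of genes with RING1B at the promoter had it. Ddx4 had it and Dazl did not, Mael and Tdrkh had it and Stk31 did not, and Hormad1 had it and Sycp3 and Stag3 did not. Among the 4196 genes whose RING1B peak was as wide as those of the members, from 2067 to 5293 bp, 70.6% had SUZ12. The other 4 members, Dazl, Stk31, Sycp3 and Stag3, had RING1B without SUZ12, as did 28.7% of all genes. The E-box was found at 4 of the 6 members with SUZ12 and 3 of the 4 without it. The SUZ12 calls at Mael, Hormad1 and Slc25a31 rested on peaks in the narrowest 25% of the SUZ12 list, and without that part of the list 3 of 10 members had SUZ12. Under the same change 19.7% of all genes had SUZ12. The list gives no height, so whether these sites are weakly bound was not tested.

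The share of the RING1B peak that SUZ12 covered varied widely between these genes. The part of the RING1B peak that SUZ12 peaks covered ranged from 22.7% at Mael through 28.2% at Zcwpw1 to 89.6% at Ddx4, with a median of 46.7%. In the 2902 genes with RING1B and SUZ12 but no PCGF2 the median was 69.2%, with quartiles of 45.2% and 93.0%. In the 3508 genes with all 3 factors, the class of Zcwpw1, it was 99.1%. Of the 5 members without PCGF2, Ddx4 and Tdrkh (69.5%) lay above the median of their class. Slc25a31 (55.5%) lay below it but inside the quartiles, and Hormad1 (37.9%) and Mael lay below the lower quartile. Of the 6 members with SUZ12, Ddx4 and Tdrkh had wider SUZ12 peaks than the median of 1524 bp in the class without PCGF2. The SUZ12 and RING1B lists were both called by the authors on merged replicates, and the RING1B list had a further filter that removed peaks.

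PCGF2 was at 1 of 10 promoters, and 13.5% of all genes had it. The shares lay farther apart among genes that also held SUZ12. There, 54.7% of genes with RING1B and SUZ12 had PCGF2, and 59.2% of those with a RING1B peak as wide as the members', but of the 6 members with both it was found only at Zcwpw1. These comparison genes were not matched on SUZ12 width. The SUZ12 peak was narrower than their median of 3267.5 bp, over all genes with RING1B and SUZ12, in 5 of the 6 members. The part of SUZ12 width in the PCGF2 counts was not tested. The PCGF2 peak at Zcwpw1 was among the narrowest of its list, with 0.353% of PCGF2 peaks narrower, against a median width of 2588.5 bp. Leaving out PCGF2 peaks under 1 kb, or the narrowest 25%, left 0 of 10 members with PCGF2. Under the same changes 12.9% and 10.8% of all genes had it. For the other 9 genes the nearest PCGF2 peak lay between 14040 bp (Mael) and 472955 bp (Stag3) from the TSS.

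**Figure D3:**
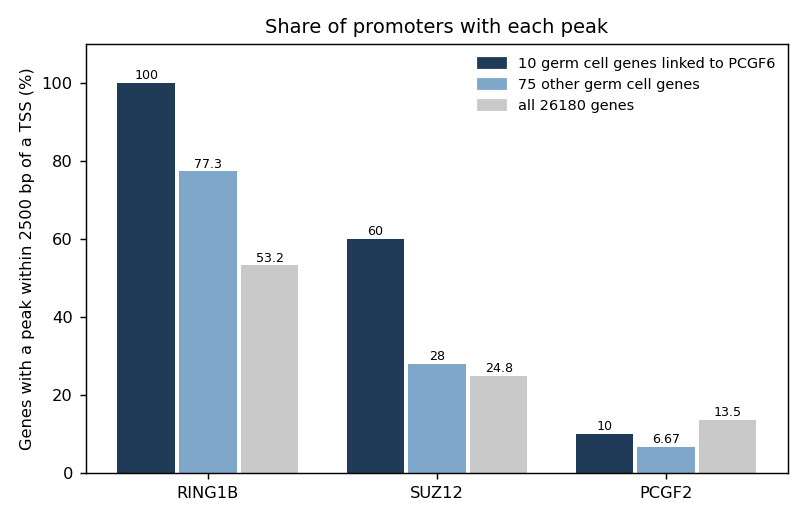
Percent of genes with a RING1B, SUZ12 or PCGF2 peak within 2500 bp of a TSS, for the 10 germ cell genes, 75 other germ cell genes and all 26180 genes (bars start at 0). The shares for all genes are 53.2%, 24.8% and 13.5%, and the members lie above them for RING1B and SUZ12 but not for PCGF2. Not drawn are the SUZ12 shares of 46.0% among genes with RING1B and 70.6% among those with RING1B peaks as wide as the members'.

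RING1B peaks at these genes were wider than those of most RING1B-bound genes. Their median width was 2786 bp, with a range from 2067 to 5293 bp, and all 10 exceeded the median of 1810 bp over the 13922 genes with RING1B at the promoter. Other germ cell genes with RING1B, listed by role further on, had a median of 2077 bp, with 2464 bp for the piRNA pathway and 2415.5 bp for the synaptonemal complex and meiotic axis. The members' widths were not tested against these. The median was 1232 bp in the 7498 genes with RING1B only, 1999 bp in those with SUZ12 as well and 4917.5 bp in those with all 3. Dazl, Stk31, Sycp3 and Stag3, which had RING1B only, all lay above the upper quartile of that class, at 1795 bp. Stag3 was wider than 97.7% of it, Sycp3 than 94.0%, Dazl than 88.4% and Stk31 than 82.5%. Against all genes with RING1B at the promoter they were wider than 81.0%, 71.5%, 63.0% and 56.5%, in the same order. The 5 members with RING1B and SUZ12 were also all above the median of their own class, and Zcwpw1 lay near the median of the class with all 3. Zcwpw1, Stag3 and Tdrkh, whose peaks also held the TSS of a neighbouring gene, had the 3 widest peaks of the 10. The part of the neighbouring promoter in these widths was not tested.

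**Figure D4:**
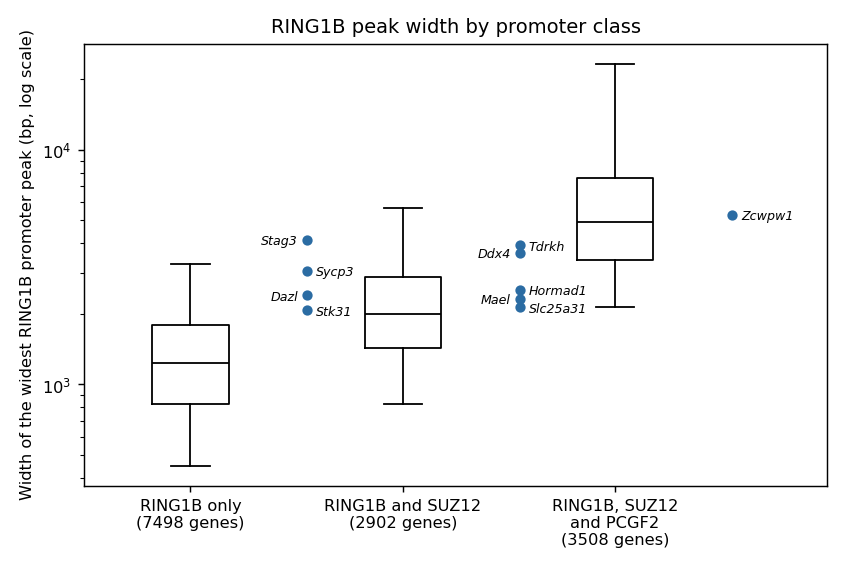
Width in bp (log scale) of the widest RING1B promoter peak in genes with RING1B only, with RING1B and SUZ12, and with all 3 factors. Boxes give the quartiles and the median, whiskers the 5th and 95th percentiles, and points the members of each class: the 4 members with RING1B only sit above the box of their class, while Zcwpw1 lies near the median of its class.

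In base composition the members resembled other RING1B-bound promoters. CpG observed/expected, the number of CpG dinucleotides relative to that expected from the C and G content, was measured in 1 kb centred on the first TSS. It ranged from 0.638 at Sycp3 to 0.821 at Zcwpw1, with a median of 0.739. All 10 genes lay above the median of 0.512 over all genes, and the members' median was near that of 0.730 in genes with RING1B at the promoter, whereas genes without RING1B there had a median of 0.221. GC content was between 51.8% at Zcwpw1 and 64.2% at Ddx4. The E-box and the E2F-type motif both contain a CpG, and their shares over all genes include many promoters poor in CpG. The share among RING1B-bound genes is therefore the closer comparison for the members' motifs. The all-gene shares with a RING1B peak include the same CpG-poor promoters, and no share among CpG-rich promoters alone is given here.

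A further 76 germ cell genes were put in 6 lists by role, and 75 were in the annotation. RING1B was at the promoter of 58 of the 75 (77.3%, against 53.2% of all genes), SUZ12 of 21 (28.0%, against 24.8%) and PCGF2 of 5 (6.67%, against 13.5%). Among protein-coding genes only, the background shares were 58.5%, 27.2% and 14.5%, so the SUZ12 share of the 75 lay close to its background. Of the 58 with RING1B, 36.2% had SUZ12, where 46.0% of all genes with RING1B did. Of the 21 with SUZ12, 23.8% had PCGF2, where 54.7% of all genes with RING1B and SUZ12 did. The members and the wider set thus both had PCGF2 at a lower share of their SUZ12 sites than genes in general, as counts with no test.

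The counts differed from list to list. All 10 genes of the synaptonemal complex and meiotic axis and all 19 of meiotic recombination and telomere attachment had RING1B, as did 15 of 16 genes of the piRNA pathway. Among regulators of germ cell fate it was 9 of 13. Only 3 of 10 post-meiotic sperm genes and 2 of 7 oocyte genes had RING1B, and none of these 17 had SUZ12 or PCGF2. Over all 75 genes, the median CpG observed/expected was 0.572 in the 58 with RING1B and 0.277 in the rest. At Nanos2, Rad21l and Tnp2 the RING1B peak in the promoter window did not overlap the gene itself. With the TSS itself required inside the peak, 54 of the 75 had RING1B and 15 had SUZ12, beside 48.0% and 18.9% of all genes.

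SUZ12 was at 6 of the 10 axis genes, which were Sycp1, Sycp2, Syce2, Tex12, Rad21l and Smc1b, and none of these had PCGF2. It was at 8 of the 16 piRNA genes, with Tdrd5, Tdrd6 and Tdrd7 also holding PCGF2 and Piwil2, Tdrd1, Pld6, Fkbp6 and Henmt1 not. In the recombination list 6 of 19 genes had it, namely Dmc1, Msh5, Mei4, Meiob and Rnf212 without PCGF2 and Mei1 with it. Meioc, a factor for meiotic entry, was the only regulator with SUZ12, and it also had PCGF2. The widest RING1B peaks of the 75 were at Sycp2 (10037 bp), a partner of Sycp3 in the axial element, followed by Mei1 (7710 bp), Tdrd1 (6866 bp), Tdrd6 (6312 bp) and Meioc (4862 bp), all of which had SUZ12. Sycp2 and Sycp3 thus differed in the lists, with SUZ12 along 9782 bp at Sycp2 and no SUZ12 peak at Sycp3.

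The E-box was within 500 bp of the TSS in 22 of the 58 genes with RING1B (37.9%, against 21.9% of all genes with RING1B) and in 1 of the 17 without it. By list, it was in 7 of 15 piRNA genes with RING1B, 4 of 10 axis genes, 6 of 19 recombination genes, 2 of 9 regulators, 2 of 3 post-meiotic sperm genes and 1 of 2 oocyte genes. The members' 7 of 10 was not tested against these counts. The members were chosen for a link to PCGF6, so they are not a random sample of germ cell promoters.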

How the data were processed

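Calibrated ChIP-seq reads from untreated cells were aligned by the authors to a combined mm10 and human (spike-in) genome using Bowtie 2, uniquely mapped reads were kept, duplicates were removed with Sambamba, and broad peaks were called with MACS2 against Input. For RING1B and SUZ12 the authors merged replicates and kept peaks found in both PRC1CPM and PRC1CKO cells, and RING1B peaks without significant loss on tamoxifen in PRC1CKO cells were dropped. The PRC1CKO RING1B data behind both steps are not among the 118 samples and were not analysed here. PCGF2 peaks had to be found in every replicate of PRC1CPM cells. The deposited values are peak starts and ends in bp, with no score, p-value or read count, so depth is not given by these lists.

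Coordinates were counted from base 1 and matched to curated RefSeq transcripts of GRCm38.p6, in which all 10 genes were found. No test was run, and shares are counts over all genes. Overlap code was tested on simulated intervals (5434 pairs compared, 0 wrong). The members, gene lists and motifs were chosen with earlier results of these data known. Named genes beyond the members were the other germ cell genes with SUZ12 or PCGF2 at the promoter, the 5 of them with the widest RING1B peaks, and genes whose TSS shared a member's RING1B peak. Alternatives changed the window, the overlap, the peaks kept, their merging, the transcripts and the sequence windows. Python 3.11.15, pandas 2.3.3, NumPy 2.4.6 and SciPy 1.17.1 were used.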

Additional observations from a re-analysis of the deposited data

How the results depend on the processing

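Of 83 recomputed values for the members and the other germ cell genes, 8 moved, counting a change of over 1.5 times for counts and of over 1 SD of the members for medians. Without the narrowest 25% of each list, SUZ12 was at 3 members in place of 6, RING1B without SUZ12 at 7 in place of 4, SUZ12 at 11 of the other germ cell genes in place of 21, and PCGF2 at 0 members in place of 1. The shares of all genes under that change were 19.7% for SUZ12 and 10.8% for PCGF2. The share with RING1B and without SUZ12 under it is not given here. PCGF2 was also at 0 members with peaks of at least 1 kb only, and 0 when the TSS itself had to lie inside the peak. The median CpG observed/expected was 0.819 in a 500 bp window and 0.624 in a 2 kb window, in place of 0.739. RING1B was at 10 of 10 members under all 11 alternatives run for it. Over the alternatives, the share of all genes ran from 41.7% to 58.5% for RING1B, from 18.9% to 27.2% for SUZ12 and from 10.8% to 14.5% for PCGF2. No paired analysis was possible because every list is a single set of positions with no replicate values, so leaving out a replicate could not be done either. Positions alone were given, so how strongly a site was bound, and a site just under the authors' threshold, cannot be seen.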

Other observations

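The flanks of the members' E-boxes were compared after the sequences had been seen. In Mael, Stag3, Stk31 and the upstream copy in Sycp3 the E-box had a C before it and an A after it in the direction of the gene, which was 4 of the 9 copies. Counting this form on either strand, it made up 16.7% of the 5157 E-boxes within 500 bp of the TSS of all genes. The count was not tested. The paired copies lay 21 bases apart in Sycp3 and 37 bases apart in Hormad1, measured between their first bases.

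Among all genes, the E-box lay within 500 bp of the TSS in 24.9% of genes with RING1B only, 19.6% with RING1B and SUZ12, 17.4% with all 3, and 42.9% of the 14 with RING1B and PCGF2 but no SUZ12, while the E2F-type motif was in 67.6%, 69.9%, 71.9% and 28.6%, in the same order. These shares are descriptions, with no test.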
